A study of Homo sapiens with 6 samples.

Results

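Aminoacyl-tRNA synthetases join each amino acid to its own tRNA, and the charged tRNA then delivers that amino acid to the ribosome. Human cells keep separate nuclear genes for the enzymes of the cytosol and for those imported into mitochondria, and the cytosolic enzymes include a group held together in a multisynthetase complex by the scaffold proteins AIMP1, AIMP2 and EEF1E1. When amino acids run short, uncharged tRNA activates the kinase GCN2, and the transcription factor ATF4 that follows is known to bind genes of several cytosolic synthetases. The genes described here are 39 of these, chosen by name from the 40295 gene rows of the table: 20 genes of cytosolic enzymes, 3 scaffold genes and 16 genes of mitochondrial enzymes. GARS1 and KARS1 were counted as cytosolic, although each gene is known to encode both the cytosolic and the mitochondrial enzyme.

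The samples were 6 RNA-seq libraries of HDQ-P1, an established human breast carcinoma cell line, 3 of them untreated and 3 made after 48 h in 1 μM Y-320. No solvent control is described for the untreated cells, and nothing says whether the replicates were separate cultures, so p-values measure the spread between these libraries, which may be technical. The study tests the small molecule Y-320 as an enhancer of premature stop codon readthrough, and the RNA-seq asked how it changes the transcriptome. The authors deposited estimated counts from kallisto, 21045401 to 22740535 per library, and they are given here as normalized CPM (counts relative to the library total, after TMM scaling), on which a single count is worth 0.0438 to 0.0480. All 39 genes passed the filter on low counts and were tested together with the rest of the table, 16580 genes in all. Because CPM is relative to each library's total, a change in the RNA content of the cells would not appear, and in bulk RNA fewer cells of a kind and less RNA per cell cannot be told apart. The epithelial markers EPCAM, CDH1, KRT8, KRT18 and KRT19 were all present, with a summed level of 7321 to 7633 normalized CPM untreated and 4538 to 4570 with Y-320. They did not move together: KRT8, KRT18 and KRT19 fell (log2 fold changes -1.02, -0.86 and -0.62), CDH1 fell slightly (-0.11) and EPCAM rose (0.38). Of 5 markers of other cell types (PTPRC, CD3E, PECAM1, COL1A1 and DES), COL1A1 was the most abundant, and their summed level was 50.8 to 60.0 untreated and 38.0 to 44.1 with Y-320. COL1A1 fell (log2 fold change -0.70), while PECAM1 rose (1.22) from 3.98 to 9.27 normalized CPM on average, and PTPRC, CD3E and DES were under 1 CPM in every library. The part of these shifts in the results was not tested.

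With Y-320, most genes of cytosolic synthetases rose, by up to 2.60-fold, while few of the mitochondrial ones rose and more of them fell. Tested with edgeR at a Benjamini-Hochberg adjusted p below 0.05, 16 of the 20 cytosolic genes were higher and 2 were lower, where the shares over all genes tested were 26.2% higher and 25.4% lower (51.5% in either direction). Of the 16 mitochondrial genes, 2 were higher, 6 were lower and 8 were not called. Their share called in either direction was thus close to that over all genes tested. Of the 3 scaffold genes 1 was lower. No scaffold gene was higher by edgeR, also at an unadjusted p under 0.05, and none by DESeq2 or limma-voom. The median log2 fold change was 0.39 over the cytosolic genes, -0.08 over the mitochondrial genes and 0.001 over all genes tested. A log2 fold change of at least 0.5 among called genes was reached by 9 cytosolic genes and by no mitochondrial gene, against 8.44% of all genes tested. All 3 Y-320 libraries lay above all 3 untreated libraries for 16 cytosolic and 3 mitochondrial genes (29.8% of all genes tested), and below them for 3 cytosolic and 7 mitochondrial genes (29.4% of all genes tested). The plot of log2 fold changes shows the 39 genes by subgroup.

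**Figure D1:**
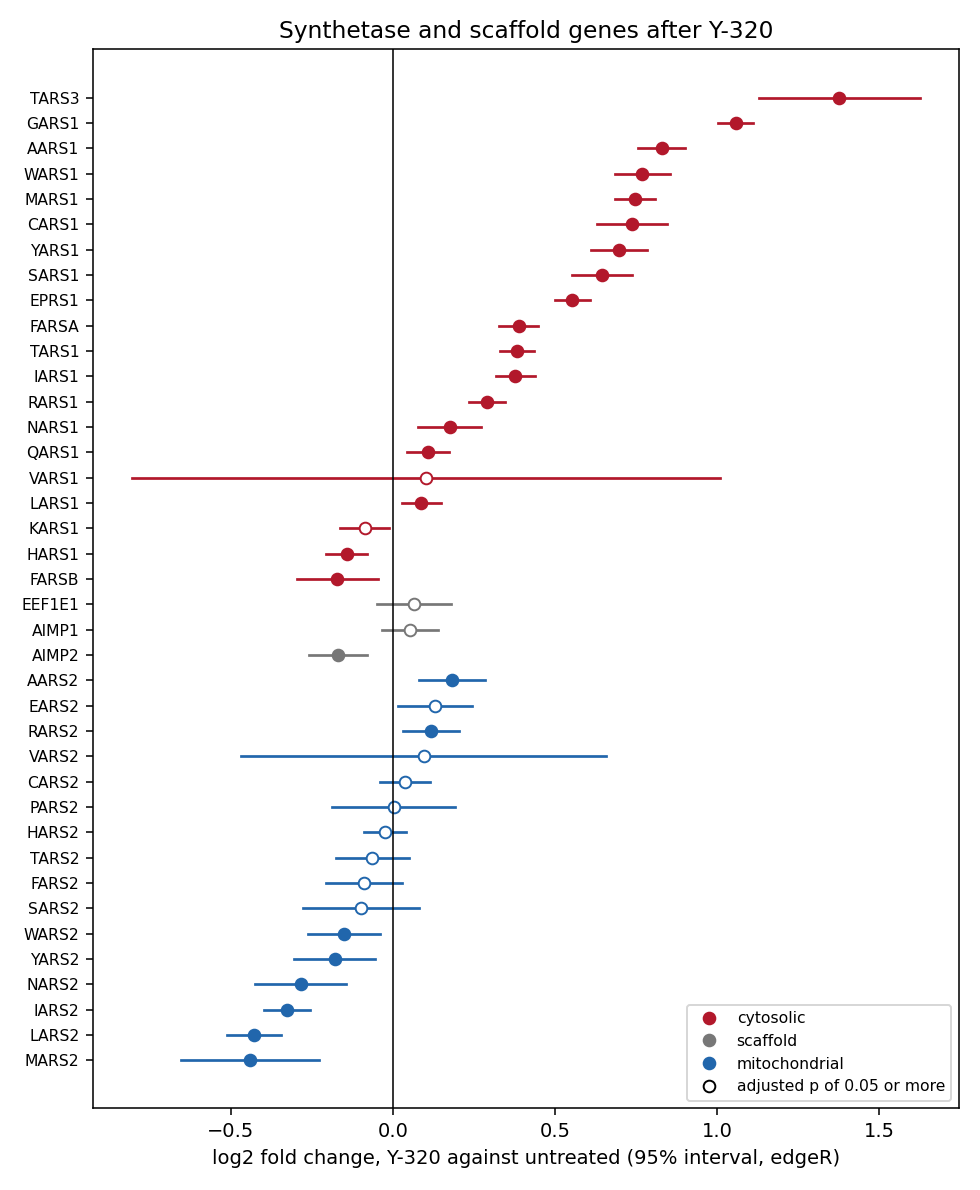
Log2 fold change (x axis) of each of the 39 genes with its 95% interval from edgeR, cytosolic genes in red, scaffold genes in grey and mitochondrial genes in blue; open circles mark genes that did not pass. The cytosolic genes reach from -0.17 to 1.38 and the mitochondrial genes from -0.44 to 0.18.

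GARS1, the glycine enzyme (ENSG00000106105, chr7:30580533-30634033, plus strand), had 253.4, 257 and 254.1 normalized CPM in the untreated libraries and 517.4, 535.4 and 539.5 in those with Y-320, both in the order of replicates 1, 2 and 3 that is kept from here on (gene coordinates are those of GENCODE 44 on hg38). Every Y-320 library was thus above every untreated one by a wide margin, 2.08-fold on average (log2 fold change 1.06, standard error 0.0242, edgeR adjusted p = 7.52e-10), and 2.36% of the genes tested had a log2 fold change as high or higher. TARS3, a threonine enzyme and the least expressed of the group apart from VARS1 (ENSG00000185418, chr15:101653596-101724473, minus strand), had 3.29, 3.2 and 2.86 normalized CPM untreated and 8.5, 8.38 and 7.47 with Y-320. Its groups did not overlap either, and its change was the largest of the 39 at 2.60-fold (log2 fold change 1.38, standard error 0.112, edgeR adjusted p = 3.01e-06), although at a level of under 10 CPM. AARS1, the alanine enzyme (ENSG00000090861, chr16:70251983-70289707, minus strand), had 252.8, 255.6 and 252.2 normalized CPM untreated and 427.4, 456.6 and 466.7 with Y-320. All 3 treated libraries were far above the untreated ones, 1.78-fold on average (log2 fold change 0.83, standard error 0.0326, edgeR adjusted p = 1.67e-08).

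WARS1, the tryptophan enzyme, which interferon is also known to induce (ENSG00000140105, chr14:100333790-100376805, minus strand), had 148.4, 157.2 and 146.4 normalized CPM untreated and 243.9, 263.1 and 263.3 with Y-320. MARS1, the methionine enzyme (ENSG00000166986, chr12:57475445-57517569, plus strand), had 133.1, 134.4 and 131.4 normalized CPM untreated and 217.1, 223.2 and 229.1 with Y-320. CARS1, the cysteine enzyme (ENSG00000110619, chr11:3000922-3057613, minus strand), had 46.3, 44.5 and 41.8 normalized CPM untreated and 69.8, 74.2 and 77.2 with Y-320. In these 3 genes the groups were far apart, with folds of 1.7, 1.68 and 1.67 and log2 fold changes of 0.77 (standard error 0.0383, edgeR adjusted p = 8.15e-08), 0.75 (standard error 0.0283, adjusted p = 1.31e-08) and 0.74 (standard error 0.0487, adjusted p = 6.47e-07). YARS1, the tyrosine enzyme (ENSG00000134684, chr1:32775237-32818031, minus strand), had 99.1, 100.8 and 98.5 normalized CPM untreated and 153.2, 160.6 and 170.1 with Y-320. SARS1, the serine enzyme (ENSG00000031698, chr1:109213918-109238182, plus strand), had 102.5, 105.4 and 104.3 normalized CPM untreated and 152.2, 164.9 and 170.9 with Y-320. EPRS1, a single protein that carries the glutamate and the proline enzyme (ENSG00000136628, chr1:219968600-220046530, minus strand), had 170.5, 166.7 and 167.9 normalized CPM untreated and 249.5, 244.6 and 247.5 with Y-320. Again no treated library reached down to the untreated range, and the log2 fold changes were 0.70 for YARS1 (edgeR adjusted p = 1.72e-07), 0.64 for SARS1 (adjusted p = 5.1e-07) and 0.55 for EPRS1 (adjusted p = 3.29e-08). With each library left out in turn these 9 genes stayed past the threshold, with GARS1 between 1.05 and 1.08 and TARS3 between 1.31 and 1.43.

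The promoter windows of some of these genes hold words that match the known ATF4 element, and the matches are printed because every cytosolic gene that holds one rose. The C/EBP-ATF response element (CARE) has the core TGATGNAA, which was searched on both strands from 250 bases before to 50 bases after the RefSeq start site (GRCh38.p14). Of the 39 genes, 33 had such a window, and a gene with several windows was counted where any of them held the core. A core was found in 7 of the 16 cytosolic genes with a window (43.8%), in 1 of 14 mitochondrial genes (7.14%), in 2.80% of the tested genes with a window and in 3.62% of all windows of this length. The 30-base stretches around the 8 matches follow, 5′ to 3′ along the gene's own strand, with the core in capitals.
GARS1, chr7:30594834-30594863, plus strand: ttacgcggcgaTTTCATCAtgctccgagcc
AARS1, chr16:70289675-70289704, minus strand: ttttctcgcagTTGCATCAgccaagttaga
MARS1, chr12:57488053-57488082, plus strand: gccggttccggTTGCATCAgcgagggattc
CARS1, chr11:3057407-3057436, minus strand: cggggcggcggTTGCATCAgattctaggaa
TARS1, chr5:33440956-33440985, plus strand: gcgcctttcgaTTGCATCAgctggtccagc
IARS1, chr9:92293692-92293721, minus strand: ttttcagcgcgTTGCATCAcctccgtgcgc
NARS1, chr18:57621804-57621833, minus strand: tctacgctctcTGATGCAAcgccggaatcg
YARS2, chr12:32756076-32756105, minus strand: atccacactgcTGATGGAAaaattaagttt
In 5 of the 7 cytosolic genes (AARS1, MARS1, CARS1, TARS1 and IARS1) the core read TTGCATCA along the gene, NARS1 held the reverse complement of that word, and GARS1 held TTTCATCA.

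All 7 cytosolic genes with a core rose, with log2 fold changes from 0.18 (NARS1) to 1.06 (GARS1) and a median of 0.74. Of the 9 cytosolic genes with a window but no core, 6 rose and 2 fell, with a median of 0.29, and WARS1 (0.77), SARS1 (0.64) and EPRS1 (0.55) were among those that rose. YARS2, the mitochondrial gene with a core, was lower. Over the tested genes outside the 39, a core in the window went with no such shift: 26.8% of 313 genes with a core were higher, against 27.8% of 11115 without one. TARS3, YARS1, LARS1, VARS1, AARS2 and VARS2 had no window. A match is a word in the sequence and not a measured binding site, and its absence covers only this window.

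**Figure D2:**
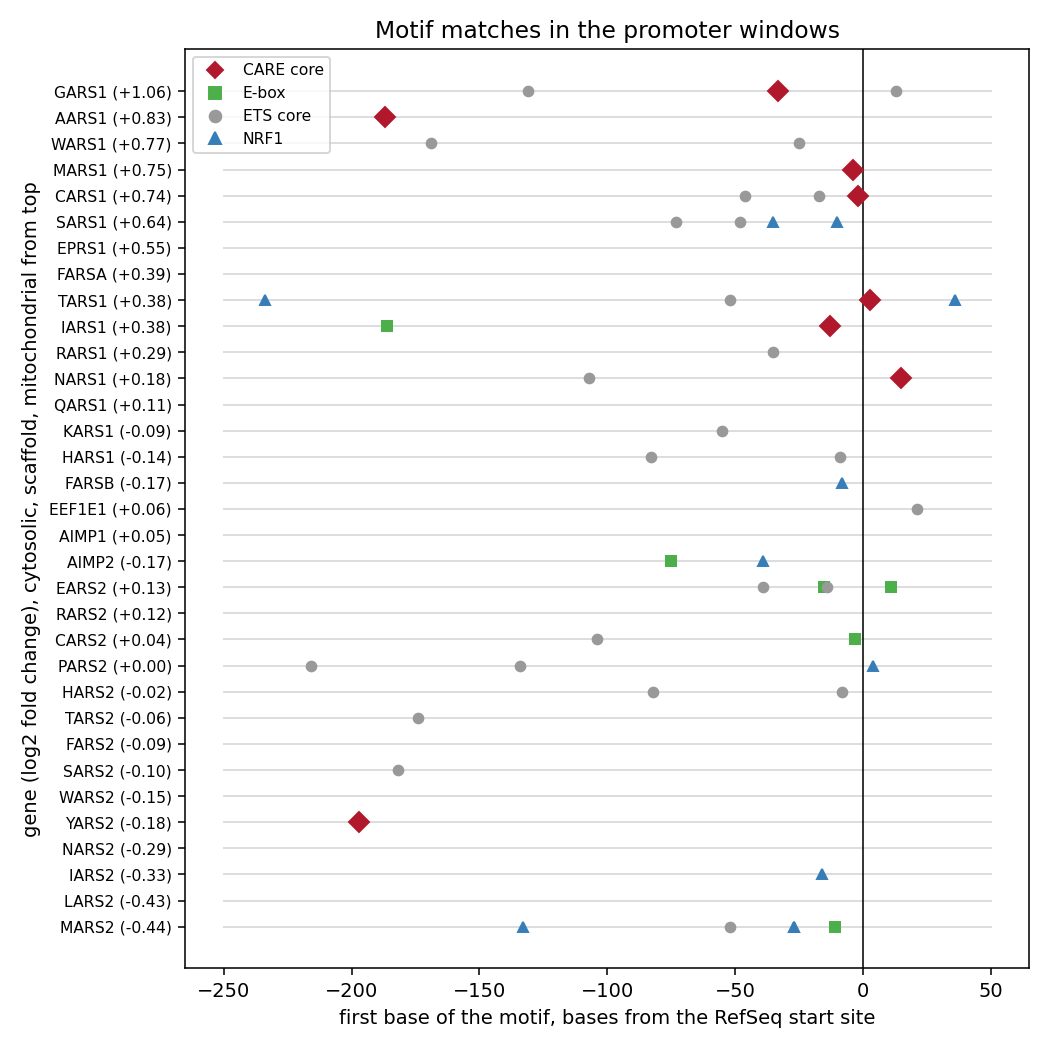
Position of motif matches in the promoter windows of 33 genes, in bases from the RefSeq start site of each window (x axis), with the genes ordered by subgroup and log2 fold change (in parentheses). Red diamonds mark the CARE core, which begins within 33 bases of a start site in 6 of the 7 cytosolic genes that hold it and at -187 in AARS1. GARS1, CARS1 and TARS1 have 2 windows each, and their distance is from the start site whose window holds the core. RefSeq start sites can differ from the ends of the GENCODE genes. The AARS1 match at -187 lies inside the gene coordinates given in the text.

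The other motifs searched were the E-box CACGTG, the ETS core CCGGAAG and the NRF1 motif, known from genes of growth and of mitochondria. The ETS core stood in 9 of 16 cytosolic windows (56.2%) and in 7 of 14 mitochondrial windows (50%), against 21% of the tested genes and 10.3% of all windows. The E-box was in 1 cytosolic and 3 mitochondrial windows, against 12.4% of the tested genes and 7.26% of all windows. The NRF1 motif was in 3 of each, against 12.4% of the tested genes and 5.79% of all windows. HARS1 and HARS2, the cytosolic and the mitochondrial histidine enzyme, lie head to head on chromosome 5, and their annotated genes overlap by 108 bases. A pair of ETS cores lies between their start sites, so each of the genes holds both, on opposite strands, as these stretches around 1 of them show.
HARS1, chr5:140691435-140691464, minus strand: cagcttcggcaCTTCCGGgaggagccggaa
HARS2, chr5:140691436-140691465, plus strand: tccggctcctcCCGGAAGtgccgaagctgg

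Smaller increases were found in 7 further cytosolic genes. FARSA, the alpha subunit of the phenylalanine enzyme, had a log2 fold change of 0.39, TARS1, the main threonine enzyme, 0.38, IARS1, the isoleucine enzyme, 0.38, and RARS1, the arginine enzyme, 0.29, with edgeR adjusted p-values from 3.77e-07 to 5.17e-06. NARS1, the asparagine enzyme, changed by 0.18, QARS1, the glutamine enzyme, by 0.11 and LARS1, the leucine enzyme, by 0.09 on the log2 scale (edgeR adjusted p = 0.00671, 0.0096 and 0.021). LARS1 had 262.6, 248.2 and 254.5 normalized CPM untreated and 267.2, 271 and 275 with Y-320. Its groups did not overlap but lay close together (log2 fold change 0.09, standard error 0.0273, edgeR adjusted p = 0.021), and the call was lost without untreated replicate 2 or 3, without Y-320 replicate 2 or 3, and with upper-quartile scaling, at log2 fold changes of 0.06 to 0.09.

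The remaining 4 cytosolic genes did not rise. HARS1 (ENSG00000170445, chr5:140673035-140691537, minus strand) had 96.8, 94.6 and 95.1 normalized CPM untreated and 85.5, 86.0 and 88.0 with Y-320. Each treated library was below each untreated one, and the change was small (log2 fold change -0.14, standard error 0.0282, edgeR adjusted p = 0.0017). FARSB, the beta subunit of the phenylalanine enzyme (ENSG00000116120, chr2:222566899-222656092, minus strand), had 54.8, 46.9 and 47.5 normalized CPM untreated and 44.1, 44 and 44.3 with Y-320. The treated libraries were lower but untreated replicate 1 stood above the other untreated libraries (log2 fold change -0.17, standard error 0.0565, edgeR adjusted p = 0.027). With that library left out the log2 fold change was -0.10 and the call was lost (adjusted p = 0.0587), as it was without any 1 of the Y-320 replicates (adjusted p = 0.0582 to 0.0710). FARSA and FARSB are the subunits of 1 enzyme. In a comparison chosen after their values were seen, the ratio of FARSA to FARSB counts was 2.31 to 2.70 untreated and 3.66 to 3.76 with Y-320. KARS1, the lysine enzyme (ENSG00000065427, chr16:75627474-75648643, minus strand), had 171.9, 176.9 and 167.9 normalized CPM untreated and 164.3, 154.9 and 167 with Y-320. Its treated libraries were all below the untreated ones by little (log2 fold change -0.09, standard error 0.0341, edgeR adjusted p = 0.0534, 95% interval -0.16 to -0.01), and it passed as lower with DESeq2, the stricter filter, upper-quartile scaling, and without Y-320 replicate 3 or untreated replicate 3, at adjusted p = 0.0152 to 0.0467.

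VARS1, the valine enzyme (ENSG00000204394, chr6:31777518-31795752, minus strand), had 0.728, 0.293 and 0.802 normalized CPM untreated and 0.635, 0.889 and 0.473 with Y-320. The groups overlapped and the interval was wide (log2 fold change 0.10, 95% interval -0.80 to 1.01, edgeR adjusted p = 0.856), so neither a rise nor a fall of the size of the other genes was detectable. Its counts of 6.10 to 19.4 per library are uncertain: another row of the table with no gene name (ENSG00000096171) holds identical values in all 6 libraries, and how reads were divided between the rows was not tested. SARS2 likewise shares its values with the unnamed row ENSG00000283104, and 43.7% of the 31-base words in its transcripts are found in another gene too. For VARS2 that share was 62.0%, for EEF1E1 it was 24.1%, and for the other members it was at most 9.28%. For VARS1 itself the share was 0% in the transcripts searched, although the unnamed row holds its values. A low share thus does not show that the counts of a gene are its own.

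**Figure D3:**
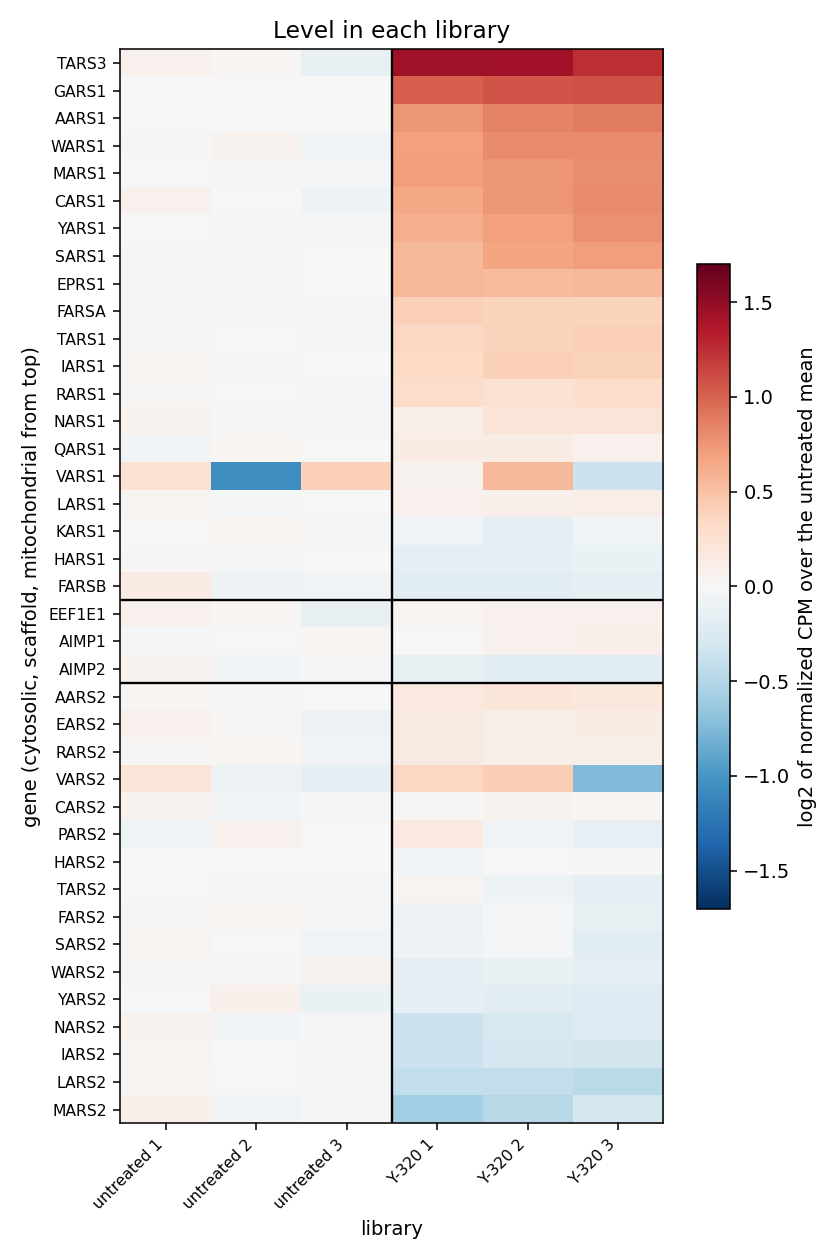
Log2 of the normalized CPM of each gene in each library over its untreated mean (colour), with genes in rows and the 6 libraries in columns. The 9 top rows are red in all 3 Y-320 libraries, VARS1 and VARS2 vary within groups, and MARS2, LARS2 and IARS2 are blue in all 3 Y-320 libraries.

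The cytosolic genes can be divided by features that their choice did not use. Class I enzymes, whose catalytic domain has a Rossmann fold, numbered 9 without the bifunctional EPRS1, and 8 of them rose with a median log2 fold change of 0.38 over all 9. Of the 10 genes of class II enzymes 7 rose and 2 fell, with a median of 0.39, so the medians of the classes lay side by side. Over all genes tested, 26.2% were higher and 25.4% lower. Among the 7 enzymes of the multisynthetase complex 6 rose, with a median of 0.29, and among the 13 outside it 10 rose and 2 fell, with a median of 0.64. Within the complex the log2 fold changes reached from -0.09 (KARS1) to 0.75 (MARS1), and the scaffolds did not follow the leading enzymes. AIMP2 had 57.5, 53.4 and 54.0 normalized CPM untreated and 50.2, 48.3 and 48.2 with Y-320. It was lower in all treated libraries (log2 fold change -0.17, standard error 0.0396, edgeR adjusted p = 0.00463). AIMP1 had 42.6, 42.8 and 44.1 normalized CPM untreated and 43.1, 45.5 and 45.7 with Y-320. EEF1E1 had 36.5, 35.6 and 31.8 normalized CPM untreated and 35.9, 36.4 and 36.3 with Y-320. The groups of both overlapped, with 95% intervals of -0.03 to 0.14 for AIMP1 (edgeR adjusted p = 0.287) and -0.05 to 0.18 for EEF1E1 (adjusted p = 0.332).

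Among the mitochondrial enzymes, MARS2 for methionine (ENSG00000247626, chr2:197705369-197708395, plus strand) had 10.5, 9.49 and 9.6 normalized CPM untreated and 6.61, 7.14 and 8.08 with Y-320. LARS2 for leucine (ENSG00000011376, chr3:45388561-45554726, plus strand) had 42.0, 41.3 and 40.3 normalized CPM untreated and 30.9, 30.9 and 30.1 with Y-320. IARS2 for isoleucine, the most abundant of the mitochondrial group (ENSG00000067704, chr1:220094132-220148041, plus strand), had 184.3, 177.2 and 174.3 normalized CPM untreated and 138.2, 145.8 and 143.2 with Y-320. In all 3 the treated libraries were below the untreated ones, with log2 fold changes of -0.44 (standard error 0.0954, edgeR adjusted p = 0.00296), -0.43 (standard error 0.038, adjusted p = 5.88e-06) and -0.33 (standard error 0.0315, adjusted p = 1.1e-05). NARS2, YARS2 and WARS2, for asparagine, tyrosine and tryptophan, fell by 0.29, 0.18 and 0.15 on the log2 scale (adjusted p = 0.00334, 0.0211 and 0.0281). The YARS2 call was lost without Y-320 replicate 2 or 3 or untreated replicate 1 or 2 (adjusted p = 0.0553 to 0.0857). The WARS2 call was lost without any 1 of the Y-320 replicates, without untreated replicate 3, with no filter and with DESeq2 (adjusted p = 0.0554 to 0.132). IARS2 and EPRS1 lie on opposite strands of chromosome 1 with their annotated starts 47602 bases apart, and moved in opposite directions. Whether other genes lie between them was not examined.

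The mitochondrial genes that rose were AARS2 and RARS2. AARS2, for alanine (ENSG00000124608, chr6:44298731-44313347, minus strand), had 21.5, 20.6 and 21.2 normalized CPM untreated and 23.6, 24.4 and 23.8 with Y-320. RARS2, for arginine (ENSG00000146282, chr6:87513459-87590028, minus strand), had 44.8, 45.4 and 42.6 normalized CPM untreated and 49.4, 47.3 and 47.4 with Y-320. Both had treated libraries above all untreated ones by a narrow margin, with log2 fold changes of 0.18 (standard error 0.0453, edgeR adjusted p = 0.00653) and 0.12 (standard error 0.0389, adjusted p = 0.0267). The call of RARS2 was lost without untreated replicate 3, without Y-320 replicate 1, with DESeq2 and with upper-quartile scaling, at log2 fold changes of 0.09 to 0.12. EARS2, for glutamate, had 25.9, 25.0 and 23.1 normalized CPM untreated and 27.5, 26.5 and 26.9 with Y-320. Its groups did not overlap, and it came close to the threshold (log2 fold change 0.13, standard error 0.0513, edgeR adjusted p = 0.0571), which it passed with library size scaling and without untreated replicate 1 (adjusted p = 0.0408 and 0.0339).

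The other 7 mitochondrial genes did not pass. FARS2, for phenylalanine, had 19.4, 20.3 and 19.3 normalized CPM untreated and 18.3, 19.2 and 18.0 with Y-320. TARS2, for threonine, had 48.8, 49.4 and 48.1 normalized CPM untreated and 50.3, 46.1 and 43.5 with Y-320. SARS2, for serine, had 9.91, 9.62 and 9.17 normalized CPM untreated and 9.01, 9.46 and 8.34 with Y-320. FARS2 was lower in all treated libraries by little, while TARS2 and SARS2 had overlapping groups, and without Y-320 replicate 1 TARS2 passed as lower with a log2 fold change of -0.12. CARS2, for cysteine, had 72.8, 67.7 and 69.1 normalized CPM untreated and 71.0, 72.5 and 71.7 with Y-320. HARS2 had 81.1, 80.9 and 81.7 normalized CPM untreated and 78.6, 81.3 and 79.9 with Y-320. PARS2, for proline, had 12.7, 14.0 and 13.2 normalized CPM untreated and 14.9, 12.8 and 12.1 with Y-320. The groups of these 3 overlapped, and the 95% intervals of their log2 fold changes were -0.04 to 0.11, -0.09 to 0.04 and -0.19 to 0.19. VARS2, for valine, had 6.39, 5.18 and 4.88 normalized CPM untreated and 7.01, 7.33 and 3.25 with Y-320. Here Y-320 replicate 3 stood far below the other treated libraries, and the 95% interval reached from -0.47 to 0.66. Without that library VARS2 passed as higher with a log2 fold change of 0.39 (edgeR adjusted p = 0.0408), and without Y-320 replicate 1 or 2 the value was -0.06 or -0.09. Of the 31-base words in VARS2 transcripts 62.0% also occur in another gene, and how its reads were divided was not tested.

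Enzymes for the same amino acid were then compared within each library, as the log2 ratio of the cytosolic to the mitochondrial gene, which does not depend on the scaling of libraries. In 14 of 16 pairs the ratio was higher in all 3 Y-320 libraries than in all 3 untreated libraries. In 1 pair (HARS1 to HARS2) it was lower, and in 1 pair (VARS1 to VARS2) the groups overlapped. Among single genes, 29.8% of all those tested lay above in this way and 29.4% below. The share over ratios of other gene pairs was not computed, so the count of pairs has no background of its own. For MARS1 to MARS2 the log2 ratio of counts was 3.66, 3.82 and 3.77 untreated and 5.04, 4.97 and 4.83 with Y-320, a rise of 1.19 and the largest of the 16. WARS1 to WARS2 went from 2.82 ± 0.097 to 3.74 ± 0.049 and YARS1 to YARS2 from 1.81 ± 0.086 to 2.68 ± 0.114 (SD, n = 3 libraries each). IARS1 to IARS2, where both genes moved and in opposite directions, went from 0.42 ± 0.036 to 1.12 ± 0.011, while RARS1 to RARS2 rose by the least of the 14, from 2.04 ± 0.037 to 2.21 ± 0.026. HARS1 to HARS2 went from 0.23 ± 0.019 to 0.11 ± 0.031. CARS1 was the cytosolic gene, apart from VARS1, with fewer counts than its mitochondrial counterpart before treatment, at a log2 ratio of -0.66 ± 0.061 that became 0.04 ± 0.066. For each of the 15 pairs without overlap the two-sided exact permutation test gave p = 0.1, the smallest that 3 libraries against 3 allow, and 0.107 after Benjamini-Hochberg adjustment over the 16 pairs, so this test cannot reach 0.05 here. For VARS1 to VARS2 the same exact permutation test gave p = 0.8. EPRS1 enters a pair with EARS2 and another with PARS2, so the pairs are not all independent.

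**Figure D4:**
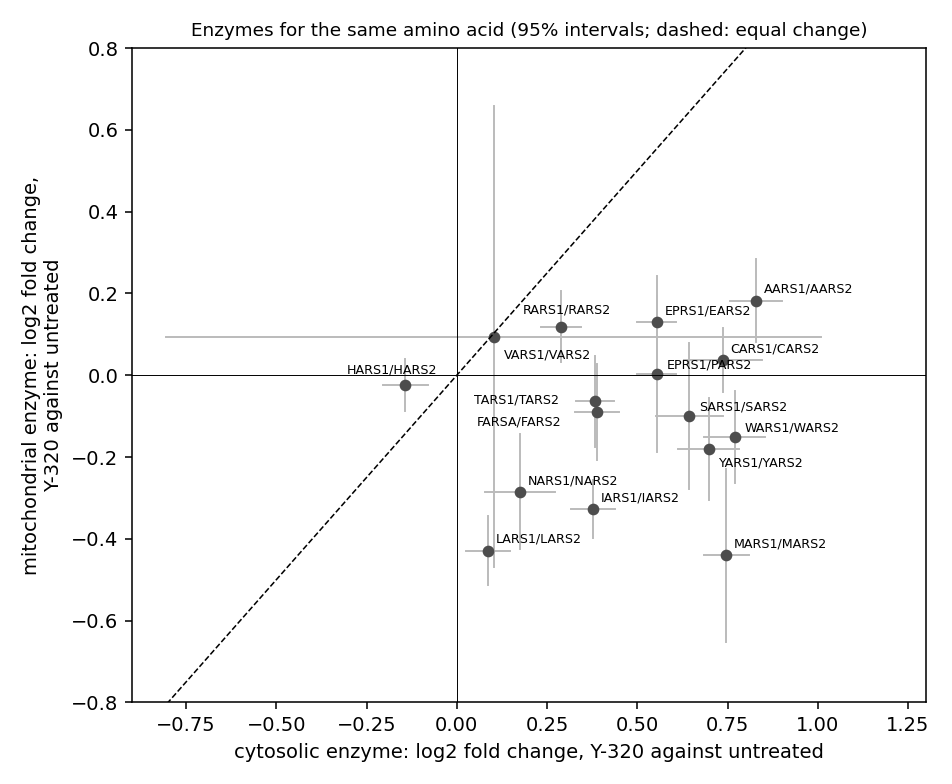
Log2 fold change of the cytosolic gene (x axis) against that of the mitochondrial gene (y axis) for the 16 pairs, each with 95% intervals from edgeR; on the dashed line both genes change alike. The points lie below the line except for HARS1 with HARS2, which lies above it, and VARS1 with VARS2, whose point is on the line and whose intervals cross it.

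Summed over genes, the cytosolic group had 3102, 3085 and 3048 normalized CPM untreated and 4193, 4308 and 4363 with Y-320, a ratio of means of 1.39. The mitochondrial group had 647.3, 633.9 and 622.2 untreated and 583.2, 589.5 and 574.5 with Y-320, a ratio of 0.918. The sums of the 2 groups thus moved apart, from 4.79 to 4.90 cytosolic counts for each mitochondrial one untreated to 7.19 to 7.59 with Y-320. On average the mitochondrial sum went from 634.4 to 582.4 and IARS2 alone from 178.6 to 142.4. Most of the fall of that sum therefore lay in this gene. The scaffold genes summed to 130.0 to 136.6 untreated and 129.2 to 130.2 with Y-320.

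Levels of different genes were compared as normalized CPM per kilobase of the canonical transcript in GENCODE 44. In untreated cells TARS1 had the highest level at 169.9 ± 2.74, followed by GARS1 at 104.6 ± 0.784 (SD, n = 3). QARS1 (87.8 ± 2.70), KARS1 (86.5 ± 2.27) and RARS1 (85.6 ± 0.933) came next and did not differ beyond their spread. With Y-320 the level of GARS1 was 217.8 ± 4.81 and that of TARS1 221.6 ± 4.20, within 1 SD of each other. AARS1 moved from the sixth to the third place with 131.0 ± 5.94, and KARS1 from the fourth to the ninth with 81.4 ± 3.19. The mitochondrial genes reached from 1.53 (VARS2) to 50.6 (IARS2) untreated, and IARS2 stood among the cytosolic genes in the twelfth place. TARS3 had 0.895 untreated and 2.33 with Y-320, against the far higher level of TARS1.

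**Figure D5:**
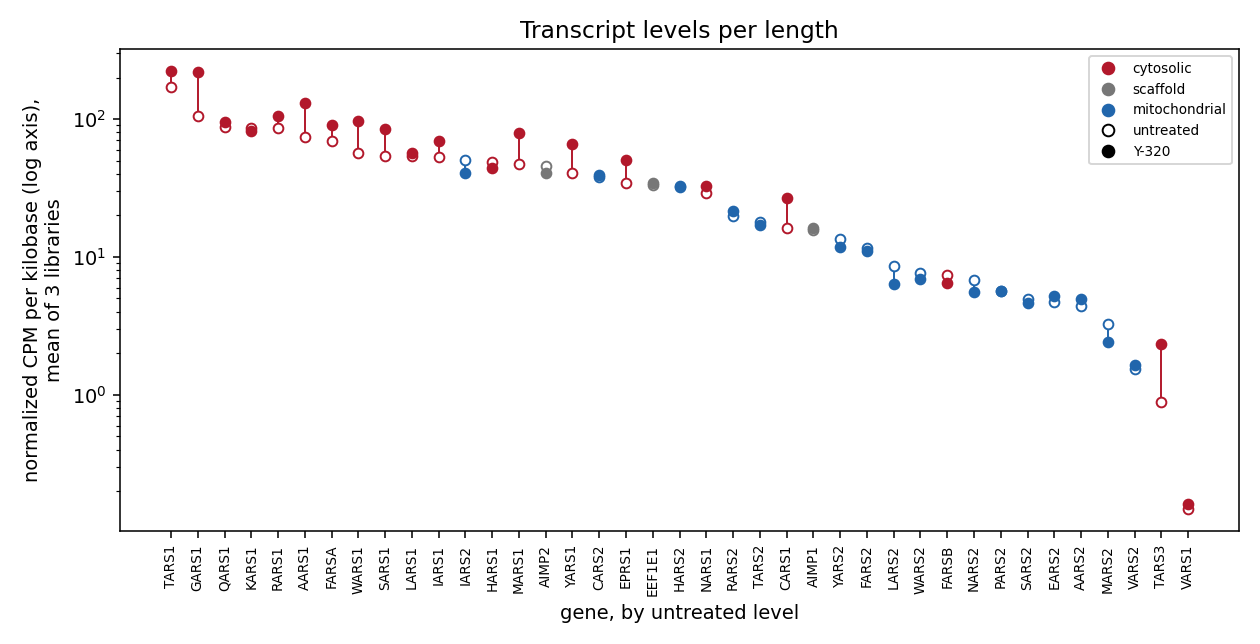
Normalized CPM per kilobase of canonical transcript (log axis, mean of 3 libraries), untreated as open and Y-320 as filled circles, for the 39 genes in order of their untreated level. TARS1 and GARS1 stand side by side at 221.6 and 217.8 with Y-320, and the mitochondrial genes (blue) lie at or below 50.6 untreated.

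Other genes of tRNA charging were taken from a list made by function, with earlier results of these data known. Of 14 partners of the synthetases, 4 were higher and 6 were lower, where 26.2% of all genes tested were higher and 25.4% lower, so the share higher was close to that background. The higher ones were XPOT, the exporter of tRNA from the nucleus (log2 fold change 0.74, edgeR adjusted p = 7.97e-08, from 163.1 ± 7.35 to 272.6 ± 8.70 normalized CPM, SD, n = 3 each), the selenophosphate synthetase SEPHS2 (0.29), the alanyl-tRNA editing protein AARSD1 (0.19) and EEF1A1, the elongation factor that carries charged tRNA to the cytosolic ribosome (0.10). All 3 subunits of the amidotransferase that makes glutaminyl-tRNA in mitochondria were lower. Their log2 fold changes were -0.37 for GATB, -0.13 for QRSL1 and -0.15 for GATC (edgeR adjusted p = 0.000291, 0.0341 and 0.0356). Also lower were MTFMT, which formylates the mitochondrial initiator tRNA (-0.22, adjusted p = 0.0212), TRNT1, which adds the CCA end to tRNAs (-0.24, adjusted p = 0.00373), and TUFM, the mitochondrial elongation factor (-0.13, adjusted p = 0.00465). Whether these calls hold with each library left out was not tested. DTD1, DTD2, PSTK and SEPSECS did not pass, with log2 fold changes from -0.19 to 0.29.

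A list of 6 genes known to sense or answer uncharged tRNA was also made with earlier results of these data known. Of these 6 genes, 5 were higher, against 26.2% of all genes tested. They were ATF4 (log2 fold change 1.09), its targets ASNS (1.98), TRIB3 (2.04) and DDIT3 (1.78), and GCN1, the partner of GCN2 on the ribosome (0.32). Because of that choice the count is no independent support, and whether uncharged tRNA had a part was not tested. EIF2AK4, the gene of GCN2, had a log2 fold change of -0.08 (edgeR adjusted p = 0.0848).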

How the data were processed

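The table that the authors deposited holds unnormalized estimated counts, 1 column a library, made with kallisto 0.46.1 on GRCh38 per the submitters' processing notes. Their Ensembl release is not given in the sources used here. kallisto divides reads among the transcripts they match, so genes with near-identical copies are uncertain. The counts were rounded. Of 40295 identifiers 35390 were matched to a gene name. Low genes were removed with filterByExpr (minimum count 10, total 15), and edgeR 4.0.16 (R 4.3.3) ran TMM scaling and the quasi-likelihood test on all genes left, adjusted by Benjamini-Hochberg, with calls below 0.05. Standard errors come from that test. DESeq2 1.42.0 and limma-voom (limma 3.58.1) were other tests. Ratios used the exact permutation test of scipy 1.17.1 (Python 3.11.15). Positions, lengths and shared 31-base words came from GENCODE 44 on hg38, and promoter windows from RefSeq (GRCh38.p14), matched by symbol.

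The labels gave the groups. Libraries held 21045401 to 22740535 counts, and 16421 to 16570 genes had at least 10. Chi-square over degrees of freedom was 2.02 to 2.98 between replicates, where sampling noise alone gives about 1. The members and gene lists were chosen with earlier results of these data known. The rule named all 39 members, and gave in every library those past the threshold with a log2 fold change of at least 0.5, those that did not pass or went against their group, and the 3 largest mitochondrial changes in each direction. The alternatives were other filters, scalings, tests and thresholds, a replicate block, each library left out, unrounded counts, and members with shared reads or a dual product left out.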

Additional observations from a re-analysis of the deposited data

How the results depend on the processing

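The counts of 16 cytosolic genes higher and 6 mitochondrial genes lower stayed within 1.5 times under every alternative run, at 15 to 16 and 4 to 6 with each library left out. The 2 cytosolic genes lower became 1 at an adjusted p under 0.01, 3 with DESeq2, the stricter filter and upper-quartile scaling, and 1 to 3 with each library left out. The 2 mitochondrial genes higher became 1 with DESeq2, with upper-quartile scaling and at an adjusted p under 0.01, and 1 to 3 with each library left out. Upper-quartile scaling moved the median log2 fold change of all genes to -0.028 (3917 higher and 4746 lower, 45.2% of calls higher against 50.7%), that of the cytosolic genes from 0.39 to 0.36 and that of the mitochondrial genes from -0.08 to -0.11. Leaving out each library gave mitochondrial medians of -0.11 (without Y-320 replicate 2) to -0.04 (without Y-320 replicate 3). The uncalled values that changed sign were PARS2 (0.002, which became -0.0008 with limma-voom, -0.0007 with the replicate block, -0.03 with upper-quartile scaling and -0.09 to 0.07 with each library left out), VARS1 (-0.22 to 0.36 with each library left out) and VARS2 (-0.09 to 0.39). Over the members' values under all alternatives, 503 kept direction and call, 23 lost the call, 9 gained it and 10 changed sign. VARS1 had no value under the stricter filter. The cause of these changes was not tested.

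Replicate numbers did not pair the libraries: same-numbered deviations correlated at -0.00236, 0.0155 and 0.00222, and untreated replicate 1 correlated best with Y-320 replicate 2 (0.0294). With the replicate block, 4285 genes were higher and 4159 lower over all genes, and 16 cytosolic genes were higher and 2 lower. With 3 libraries a group and 21045401 to 22740535 counts each, changes in the genes at a few CPM were measured least precisely. Leaving out VARS1, VARS2 and SARS2, an alternative chosen after seeing the data, left the medians at 0.39 and -0.08. Without GARS1 and KARS1, both counted as cytosolic, the cytosolic median stayed at 0.39. GARS1 and KARS1 lie on either side of that median, and VARS2 and SARS2 on either side of the mitochondrial one. Removing these couples could not move the medians, so it is no test of them.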
